A study of Mus musculus with 21 samples.

Results

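Narrow shared CHD4 peaks are stretches of under 400 bp in which chromatin immunoprecipitation (ChIP) of CHD4 from wild-type embryonic mouse hearts gave a peak in all 3 deposited peak lists. They were taken as peaks of the Rep1 list on chromosomes 1 to 19 or X that overlap by at least 1 bp a peak of both the Rep2 and the Rep3 list and whose Rep1 width is under 400 bp. There were 10269 of them, 12.2% of the 84232 Rep1 peaks on those chromosomes and 45.0% of the 22796 Rep1 peaks found in all 3 lists. The other 12527 shared peaks were 400 bp or wider and are called wide here. The members were chosen by 2 measured values, the Rep1 width and the overlap with the other lists, so both are given as descriptions with no test.

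All animals were CD1 mice. The ChIP hearts were wild type at embryonic day (E) 10.0, with a mouse monoclonal anti-CHD4 antibody (3F2/4). Per the series text the 3 ChIP libraries come from 2 biological replicates, so the 3 lists are not 3 independent samples, and the 2 input libraries were not analysed here. RNA was sequenced from hearts of Chd4(flox/flox) embryos, the control (flox), and of Chd4(Δflox/Δflox) embryos depleted of CHD4 (null), with 5 libraries each at E9.5 and 3 each at E10.5. The Cre driver that recombined the alleles is named neither in the labels nor in the series text. In bulk hearts, fewer cells of a type and less RNA per cell cannot be told apart.

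CHD4 is an ATPase that slides nucleosomes and is the motor of the nucleosome remodelling and deacetylase (NuRD) complex, which also holds the histone deacetylases HDAC1 and HDAC2. NuRD has no strong sequence preference of its own and is brought to promoters and enhancers by transcription factors. In the heart it is known for keeping muscle genes of other muscle types silent. A ChIP peak marks where the protein was found on chromatin and does not by itself say that a nearby gene depends on it.

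The peaks that lie on a gene's start are where sequence and expression can be read together. Shown here are the stretches just before the start that narrow shared peaks covered at 5 genes whose RNA differed between null and flox hearts, and at Acta2, smooth muscle actin, whose difference did not pass the test. Sequences are from RefSeq (GRCm38.p6, the assembly of mm10), 5′ to 3′ on the gene's strand. Capitals mark matches on either strand to GGGCGG (SP and KLF factors), CCGGAA (ETS factors), CCAAT (NF-Y) and GGAATG (TEAD factors). E-box and NKX2-5 letters, which are short and frequent, are not marked. No bases are in capitals at Mapk8ip2 and Trib2, which hold none of these letters in the stretch shown.
Cend1, chr7:141429563-141429615, minus strand: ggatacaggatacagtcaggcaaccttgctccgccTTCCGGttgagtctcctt
Mapk8ip2, chr15:89453661-89453733, plus strand: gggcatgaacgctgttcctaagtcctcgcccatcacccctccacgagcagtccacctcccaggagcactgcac
Trib2, chr12:15816786-15816892, minus strand: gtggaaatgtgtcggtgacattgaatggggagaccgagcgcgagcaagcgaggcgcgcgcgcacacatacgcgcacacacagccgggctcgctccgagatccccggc
Frmd5, chr2:121807076-121807307, minus strand: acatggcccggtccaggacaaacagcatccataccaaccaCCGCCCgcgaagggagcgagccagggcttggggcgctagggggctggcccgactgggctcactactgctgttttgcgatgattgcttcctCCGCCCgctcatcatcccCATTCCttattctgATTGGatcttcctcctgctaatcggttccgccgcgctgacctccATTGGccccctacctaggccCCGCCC
Mlf1, chr3:67373847-67374096, plus strand: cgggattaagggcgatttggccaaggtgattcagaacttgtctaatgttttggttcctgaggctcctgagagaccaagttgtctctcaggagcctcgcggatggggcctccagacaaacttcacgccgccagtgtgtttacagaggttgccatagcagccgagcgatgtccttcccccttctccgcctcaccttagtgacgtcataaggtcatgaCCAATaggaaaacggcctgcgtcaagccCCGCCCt
Acta2, chr19:34255374-34255623, minus strand: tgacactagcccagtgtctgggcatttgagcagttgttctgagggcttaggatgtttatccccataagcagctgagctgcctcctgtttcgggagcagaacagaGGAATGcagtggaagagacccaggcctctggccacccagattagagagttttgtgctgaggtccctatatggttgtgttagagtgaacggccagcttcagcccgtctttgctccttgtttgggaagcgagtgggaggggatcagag

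The Frmd5 stretch held 3 SP and KLF matches, 2 NF-Y matches and 1 TEAD match. The Mlf1 stretch held 1 SP and KLF match and 1 NF-Y match, Cend1 held 1 ETS match and Acta2 held 1 TEAD match. Over the RefSeq promoters of 300 bp (250 before and 50 after the start), 1626 met a narrow shared peak and no wide one, 4.98% of 32619. Their median GC content was 60.7%, beside 61.0% where a wide shared peak lay and 53.0% over all promoters. The median ratio of observed to expected CpG was 0.77, beside 0.81 at wide peaks and 0.39 over all promoters. Promoters with narrow peaks were thus rich in GC and CpG, as were those with wide peaks.

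The SP and KLF letters were in 64.1% of promoters with a narrow peak, 66.3% of those with a wide peak and 35.9% of all. The ETS letters were in 32.6%, 33.6% and 15%, and CCAAT in 45.7%, 44.8% and 37.6%, in the same order. The NRF1 letters GCGCATGC were in 5.97%, 6.37% and 2.72%. These motifs of promoters active in many tissues were more frequent than over all promoters, and their shares at narrow and wide peaks were close. The GATA letters AGATAA were in 5.54% of promoters with a narrow peak, 5.90% of those with a wide peak and 11.2% of all. The TEAD letters were in 11.6%, 11.6% and 14.6%, and the T-box letters AGGTGT in 9.96%, 9.74% and 13.8%. The NKX2-5 letters AAGTG were in 43.5%, 44.3% and 46.3%, and the E-box letters CANNTG in 62.6%, 59.3% and 72.3%. The AP-1 letters TGACTCA were in 2.77%, 3.01% and 5.22%. The MEF2 letters CTAAAAATA were in 0 of 1626 promoters with a narrow peak, which allows a share of up to 0.184%, and in 0.379% of those with a wide peak and 0.521% of all. Promoters with only an unshared Rep1 peak had a median GC content of 61.3%, the SP and KLF letters in 62.5%, the GATA letters in 6.60% and the T-box letters in 10.8%. On these measures they were close to promoters with a shared peak of either width. On others they were lower than both. The ETS letters were in 23.8% of them and CCAAT in 33.2%, and their median ratio of observed to expected CpG was 0.71. Base composition differs between these groups of promoters, and its part in the shares was not tested.

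Rep1 widths of the narrow shared peaks ran from 105 to 399 bp, with a median of 261 bp. The Rep2 and Rep3 widths were not used by the width limit, so they show whether a site narrow in 1 list was narrow in the others. The median width of the overlapping peak was 233 bp in Rep2 and 207 bp in Rep3, against 413 and 335 bp for wide shared peaks. The overlapping peak was under 400 bp for 85.5% of narrow shared peaks in Rep2 and for 90.3% in Rep3, against 47.7% and 60.8% for wide ones. More than 1 overlapping Rep2 peak was found for 1.36% of narrow and 22.9% of wide peaks. The midpoints of a narrow peak and its Rep2 partner lay a median of 52 bp apart. A peak under 400 bp has little room to meet more than 1 other peak, so that share follows in part from the width limit. Most sites that were narrow in Rep1 were by partner width narrow in the other lists too, although the lists share their source. Among Rep1 peaks in 1 other list, 91.3% of the Rep2 partners and 94.8% of the Rep3 partners were under 400 bp. A narrow partner was thus not particular to narrow shared peaks.

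The share of peaks found again went with width. Of the Rep1 peaks of 100 to 149 bp 4.97% were in all 3 lists, which rose to 43.4% at 350 to 399 bp and to 96.6% at 900 bp or more. The median width of the Rep2 partner rose over the same bins from 196 to 285 and 672 bp. No step was seen at 400 bp. The 317 narrow shared peaks of 390 to 399 bp had a median score of 84 and the 368 wide ones of 400 to 409 bp had 82.5. The limit thus divides a continuous range of widths.

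**Figure D1:**
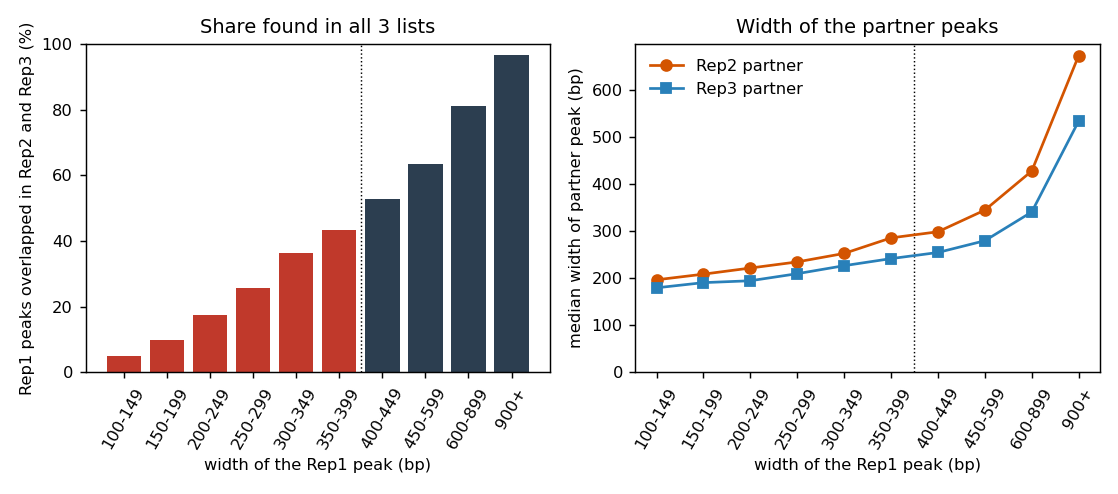
The left panel gives the share of Rep1 peaks (%) that overlap a peak in both other lists, by width of the Rep1 peak (bp), with narrow peaks in red and wide ones in dark blue. The right panel gives the median width (bp) of the overlapping Rep2 and Rep3 peaks. Both rise without a step at the dotted line at 400 bp, from 4.97% and 196 bp (Rep2) in the narrowest bin to 96.6% and 672 bp in the widest.

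The score is the authors' own value per peak, on a scale not stated in the sources used here. The narrow shared peaks had a median score of 56 in Rep1, against 114 for wide shared peaks, 40 for Rep1 peaks in 1 other list and 25 for those in no other list. Scores under 200 made up 96.7% of narrow shared peaks. Across the narrow peaks the Rep1 score followed the Rep2 score with Spearman's rho 0.41 and the Rep3 score with 0.34, against 0.70 and 0.64 across wide peaks. These are descriptions over peaks that share libraries. The order of sites by score was held less closely between lists for narrow peaks.

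Only 21 narrow shared peaks had a score of 500 or more, and 1 of the 10 highest lay within 1 kb of a protein-coding start. The highest, peak_79479 at chr9:35305247-35305577, had 4234 in Rep1, 7996 in Rep2 and 7451 in Rep3 and lay 37531 bp from the nearest start, that of Rpusd4. The second, peak_45252 at chr2:98666297-98666451, had 2196, 17081 and 17199, and its Rep2 partner was 1072 bp wide. The exception, peak_64391 at chr5:149052925-149053297, lay 54 bp from the start of Hmgb1, a chromatin protein gene, with 974, 564 and 451. Of the 10 highest, 3 lay inside a protein-coding gene, and the starts nearest to them were those of Chl1, Limd1 and Lama1. Regions of repeated sequence are known to give high ChIP signal, and the part of that in these values was not tested.

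Of the narrow shared peaks 24.7% (2541; 95% Wilson interval 23.9 to 25.6%, counting error only) had their midpoint within 1 kb of a protein-coding start. The share was 43.9% for wide shared peaks, 24.4% for Rep1 peaks in 1 other list and 15.1% for those in no other list. A further 17.2% of narrow peaks lay 1 to 5 kb away, 38.8% lay 5 to 50 kb away and 19.2% lay farther. The body of a protein-coding gene held 51.6% of narrow shared peaks and 50.7% of wide ones. A wide shared peak lay within 5 kb of 31.1% of the narrow ones. Narrow shared peaks were therefore mostly distal, with a share near starts below that of wide shared peaks and close to that of peaks found in 1 other list.

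The share near starts went with width and with score. It rose from 16% at 100 to 149 bp to 32.6% at 350 to 399 bp, and from 14.7% at scores under 25 to 54.7% at scores of 200 to 499. At scores of 500 or more it was 19.0%. At scores of 100 to 199 it was 37.6% for narrow and 48.7% for wide peaks. At scores under 25 it was 14.7% of 825 narrow and 12.1% of 116 wide peaks, too few wide peaks to order the widths there. In every bin of scores from 25 up the share was lower for narrow than for wide peaks.

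Near starts the narrow peaks sat on the upstream side. Among those within 1 kb of a start of known strand, 1393 lay upstream and 634 downstream, so 31.3% were downstream. That share was 32.4% for wide shared peaks and 52.1% for Rep1 peaks that are not shared. The median distance was 181 bp for narrow, 213 bp for wide and 459 bp for unshared peaks. Narrow and wide shared peaks thus took the same side of the start, close to it.

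**Figure D2:**
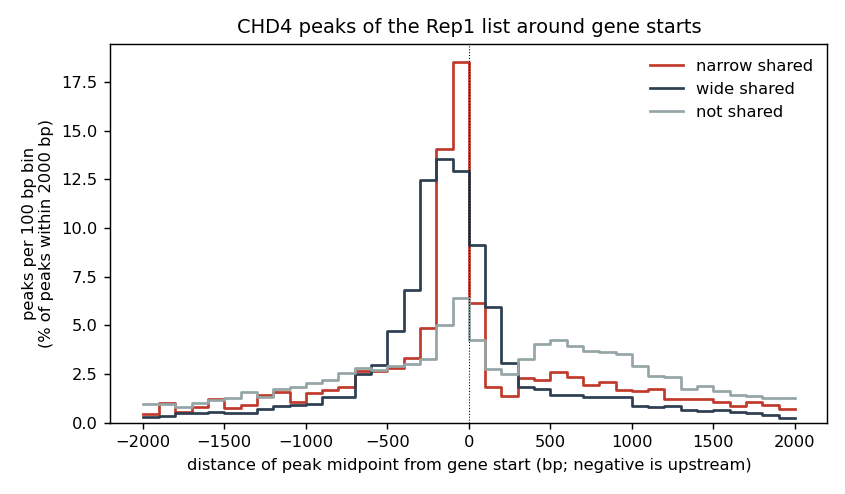
Distance (bp) of the peak midpoint from the nearest gene start of known strand, negative upstream, in bins of 100 bp, as a share (%) of the peaks of each kind within 2000 bp. Narrow shared peaks (red) and wide shared peaks (dark blue) gather just upstream of the start, with 31.3% and 32.4% of those within 1 kb on the downstream side, while peaks that are not shared (grey) are spread over both sides.

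The depth of the RNA libraries was 17.1 to 23.5 M reads (M, megareads) at E9.5. At E10.5 it was 17.3 to 18.9 M. Chd4 was at 91.2 to 94.6 RPKM (reads per kilobase of gene and megaread of the library) in flox and 40.7 to 48.8 in null hearts at E9.5. At E10.5 it was at 67.2 to 91.1 in flox and 48.2 to 57.4 in null hearts, and the difference did not pass the test (log2 difference -0.55, SE 0.16, adjusted p = 0.116, limma). The mean log2 level of 12 erythroid markers was 5.58 to 6.90 in flox and 6.76 to 7.89 in null hearts at E9.5. At E10.5 it was 6.55 to 8.01 in flox and 7.54 to 8.85 in null hearts. The mean log2 level of 6 cardiomyocyte markers was 7.58 to 7.84 in flox and 7.01 to 7.39 in null hearts at E9.5, and the groups overlapped at E10.5. That of 12 neuronal markers, Cend1 among them, was 0.91 to 1.13 in flox and 0.44 to 0.76 in null hearts at E9.5, and 1.01 to 1.31 and 0.34 to 0.74 at E10.5. That of 6 foregut and liver markers at E10.5 was -0.22 to 2.92 in flox and 1.16 to 5.86 in null hearts. The part of these levels in the results was not tested, and the erythroid level and sex were each added to the fit. By Xist against Ddx3y, 1 of 5 flox and 3 of 5 null libraries were of the male type at E9.5, and 1 of 3 and 2 of 3 at E10.5. With the erythroid level in the fit, chosen after seeing the data, 13 genes near narrow peaks were called at E9.5 and 7 at E10.5 in place of 318 and 39. That level was mostly higher in null than in flox hearts, so this fit cannot separate it from genotype. A call lost in it does not show that the difference followed the erythroid level.

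Most narrow shared peaks had no gene close by. Of the 10269 peaks 57.7% had no protein-coding start within 5 kb, 34.9% had 1 and 7.42% had 2 or more. A narrow shared peak and no wide one lay within 5 kb of the start of 2526 genes. The next comparison asks whether the RNA of these genes differed between null and flox hearts. A gene was called at an adjusted p under 0.05 (limma on log2(RPKM + 0.5), Benjamini-Hochberg over all genes tested), and differences are null minus flox on that log2 scale, which understates changes of low genes.

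At E9.5, 318 of 2008 tested genes with a narrow peak only were called (15.8%), where the background over all 13643 tested genes was 17.2%. Of these 123 rose (6.13%, background 6.87%) and 195 fell (9.71%, background 10.3%). Their median difference was -0.04, as over all genes. The flox and null libraries did not overlap for 263 of them (13.1%), with a background of 14.1%. Under median scaling the calls were 156 rises and 146 falls, so rises were 51.7% of calls in place of 38.7%. Of genes with both a narrow and a wide peak 19.2% were called, with 16.1% for a wide peak only and 18.1% for no shared peak. The shares at narrow peaks are close to the background and are no result about these peaks.

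At E10.5, 39 of 2029 tested genes with a narrow peak only were called (1.92%), where the background over all 14100 genes was 2.07%. Of these 33 rose (1.63%, background 1.77%) and 6 fell (0.296%, background 0.305%). The share of genes called was 1.39% with both kinds of peak, 1.37% with a wide peak only and 3.03% with none. Of the 33 genes that rose at E10.5, 20 had also risen at E9.5 (60.6% of the E10.5 list and 16.3% of the E9.5 list). Over all tested genes those shares were 58.2% and 15.5%. The difference between stages passed its own test for 69 of 1986 genes with a narrow peak only (3.47%), where the background was 4.04%. These shares too are near the background. The E10.5 calls rest on single libraries: without flox 1, flox 2, flox 3, null 2 or null 3 in turn, 6, 15, 7, 17 or 22 genes were called in place of 39.

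**Figure D3:**
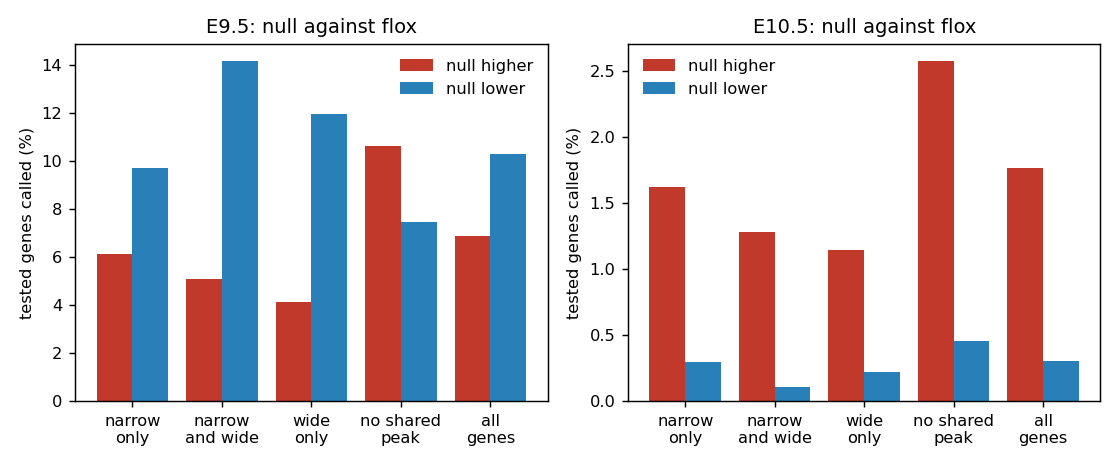
Share (%) of tested genes called higher (red) or lower (blue) in null than in flox hearts, by the kind of shared CHD4 peak within 5 kb of the start, at E9.5 (left) and E10.5 (right). The pair for narrow peaks only (6.13% and 9.71% at E9.5) lies near the pair for all genes (6.87% and 10.3%); the 2 panels have different scales.

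Of the 23 genes of the skeletal muscle list, 3 had a narrow peak only (Tnnc2, Acta1 and Cacna1s), and all 3 rose at E9.5, where 6.87% of all tested genes rose. At E10.5, 2 of the 3 rose. A further 2 had both kinds of peak: Casq1, skeletal calsequestrin, fell by 0.40 (SE 0.09, adjusted p = 0.0125) at E9.5, which did not pass with the erythroid level in the fit (adjusted p = 0.791), and Mylpf, a skeletal light chain, had a difference of -0.18 (SE 0.14, adjusted p = 0.413). Tnnc2, the troponin C of fast skeletal muscle, was at 2.04, 0.931, 2.08, 1.08 and 1.54 RPKM in flox and 38.4, 68.1, 53.9, 41.8 and 55.3 in null hearts at E9.5. At E10.5 Tnnc2 was at 0.486, 0.729 and 1.09 RPKM in flox and 55.1, 53.2 and 104 in null hearts. The groups were far apart at both stages, by 4.69 (SE 0.20, adjusted p = 5.49e-07) at E9.5 and 5.76 (SE 0.29, adjusted p = 0.000171) at E10.5. Its peak is small, at chr2:164784320-164784472, 4662 bp upstream of Tnnc2 and 1625 bp from the start of Snx21, with scores of 19, 18 and 19 in the 3 lists.

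Acta1, skeletal muscle actin, was at 526, 346, 599, 491 and 374 RPKM in flox and 881, 877, 913, 926 and 718 in null hearts at E9.5. At E10.5 it was at 190, 94.5 and 211 RPKM in flox and 989, 696 and 894 in null hearts. The ranges of the null hearts at E9.5 and E10.5 overlap, and those of the flox hearts do not. The difference was 0.91 (SE 0.15, adjusted p = 0.00254) at E9.5 and 2.44 (SE 0.31, adjusted p = 0.01) at E10.5, and it differed between the stages by 1.54 (SE 0.33, adjusted p = 0.029). The Acta1 peak, at chr8:123891432-123891674, lies just past the gene's end, 3222 bp downstream of its start. Cacna1s, the calcium channel of skeletal muscle, rose by 0.61 (SE 0.16, adjusted p = 0.0259) at E9.5, with 0.50 (SE 0.30, adjusted p = 0.347) at E10.5. The Cacna1s peak lies 1180 bp upstream of its start and nearer, 827 bp, to that of Ascl5. Actin genes are near-identical in their coding sequence, so reads of Acta1 and Acta2 may be split between them.

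The other large rises were of genes with varied roles. Mapk8ip2, a scaffold of JNK signalling in neurons, was at 0.396, 0.217, 0.346, 0.321 and 0.204 RPKM in flox and 2.49, 2.89, 2.79, 2.67 and 1.87 in null hearts at E9.5. The groups did not overlap, and the difference was 1.93 (SE 0.13, adjusted p = 7.34e-06) at E9.5 and 1.95 (SE 0.25, adjusted p = 0.0102) at E10.5. Its peak, of 384 bp, lies 369 bp upstream of the start, and part of it is printed above. Lncenc1, a long noncoding RNA, rose by 2.41 (SE 0.19) at E9.5 and 2.77 (SE 0.23) at E10.5, with 2 narrow peaks 610 and 1189 bp downstream of its start. Prph, the neuronal filament peripherin, rose by 1.61 and 1.56, and Plin5, a coat protein of lipid droplets, by 1.43 and 1.6. Il17b, a cytokine gene, rose by 1.70 and 1.82, Ccdc106 by 1.44 and 1.74 and Snhg11, a noncoding RNA, by 1.09 and 1.79. All of these passed the test at both stages, and most were under 2 RPKM in flox hearts. The 2 peaks at Ccdc106 lie 4115 and 4953 bp from its start, and nearer, 618 and 220 bp, to that of U2af2. With the erythroid level in the fit, Tnnc2, Mapk8ip2, Lncenc1 and Ccdc106 passed at both stages, Prph and Plin5 at E9.5 and Acta1 at E10.5. Cacna1s, Il17b and Snhg11 then passed at neither stage. At E9.5 Cacna1s was at 0.61 (adjusted p = 0.442), Il17b at 1.93 (adjusted p = 0.0585) and Snhg11 at 0.97 (adjusted p = 0.0853).

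Plek2, Ckmt1 and Klf1 passed the test at 1 stage and Nags at both. Plek2, a pleckstrin family gene, rose by 1.6 (SE 0.31) at E9.5, with 0.96 (SE 0.40, adjusted p = 0.202) at E10.5. Ckmt1, mitochondrial creatine kinase, rose by 2.27 (SE 0.45, adjusted p = 0.0458) at E10.5, with 0.73 (SE 0.33, adjusted p = 0.157) at E9.5. Klf1, an erythroid transcription factor, rose by 1.04 (SE 0.23) at E9.5, beside the erythroid levels given above, and its groups overlapped. Nags, an enzyme that makes the activator of the urea cycle, rose by 1.05 (SE 0.30, adjusted p = 0.0366) at E9.5 and 1.80 (SE 0.34, adjusted p = 0.0368) at E10.5. The difference between stages did not pass its test for Plek2 (adjusted p = 0.47), Ckmt1 (adjusted p = 0.119), Klf1 (adjusted p = 0.725) or Nags (adjusted p = 0.335). With the erythroid level in the fit, Plek2, Ckmt1, Klf1 and Nags did not pass at either stage. Klf1 is itself among the erythroid markers averaged for that level, so for Klf1 this fit cannot decide.

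The largest fall at E9.5 among the named genes with a narrow peak only was that of Cend1. Cend1, a neuronal gene of cell cycle exit, was at 10.4, 11.0, 9.41, 12.1 and 9.93 RPKM in flox and 3.10, 2.09, 2.17, 2.59 and 2.25 in null hearts at E9.5. At E10.5 it was at 8.80, 5.97 and 8.61 RPKM in flox and 1.71, 1.92 and 1.83 in null hearts. The groups did not overlap at either stage, and Cend1 fell by 1.92 (SE 0.10, adjusted p = 1.69e-06) and by 1.82 (SE 0.19, adjusted p = 0.00451). Its peak, at chr7:141429500-141429615, is 116 bp wide with its midpoint 4 bp from the start.

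Hopx, a homeodomain protein of cardiac progenitors without DNA binding of its own, was at 91.1, 83.6, 78.8, 84.1 and 79.0 RPKM in flox and 40.0, 37.4, 39.7, 31.3 and 38.0 in null hearts at E9.5. It fell by 1.15 (SE 0.07, adjusted p = 5.48e-06), with -1.03 (SE 0.24, adjusted p = 0.0755) at E10.5. Hopx has a high narrow peak, with scores of 240, 284 and 193 in the 3 lists, at chr5:77113086-77113468, inside the gene and 1846 bp downstream of its start. Tcap, the titin cap of the Z-disc, was at 35.6, 33.2, 34.6, 27.0 and 36.1 RPKM in flox and 19.3, 20.4, 19.3, 12.8 and 15.6 in null hearts at E9.5. It fell by 0.92 (SE 0.13, adjusted p = 0.00115), with -0.82 (SE 0.28, adjusted p = 0.149) at E10.5. Cox6a2, the muscle form of a cytochrome oxidase subunit, fell by 0.71 (SE 0.09, adjusted p = 0.00086) at E9.5, with 0.02 (SE 0.25, adjusted p = 0.968) at E10.5. The erythroid levels were higher and the cardiomyocyte levels lower in null hearts at E9.5, and the part of the cardiomyocyte level was not tested. With the erythroid level in the fit, Cend1 (-1.74, adjusted p = 0.00109) and Hopx (-0.95, adjusted p = 0.00175) passed at E9.5. Tcap (-0.78, adjusted p = 0.167) and Cox6a2 (-0.56, adjusted p = 0.164) did not pass.

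**Figure D4:**
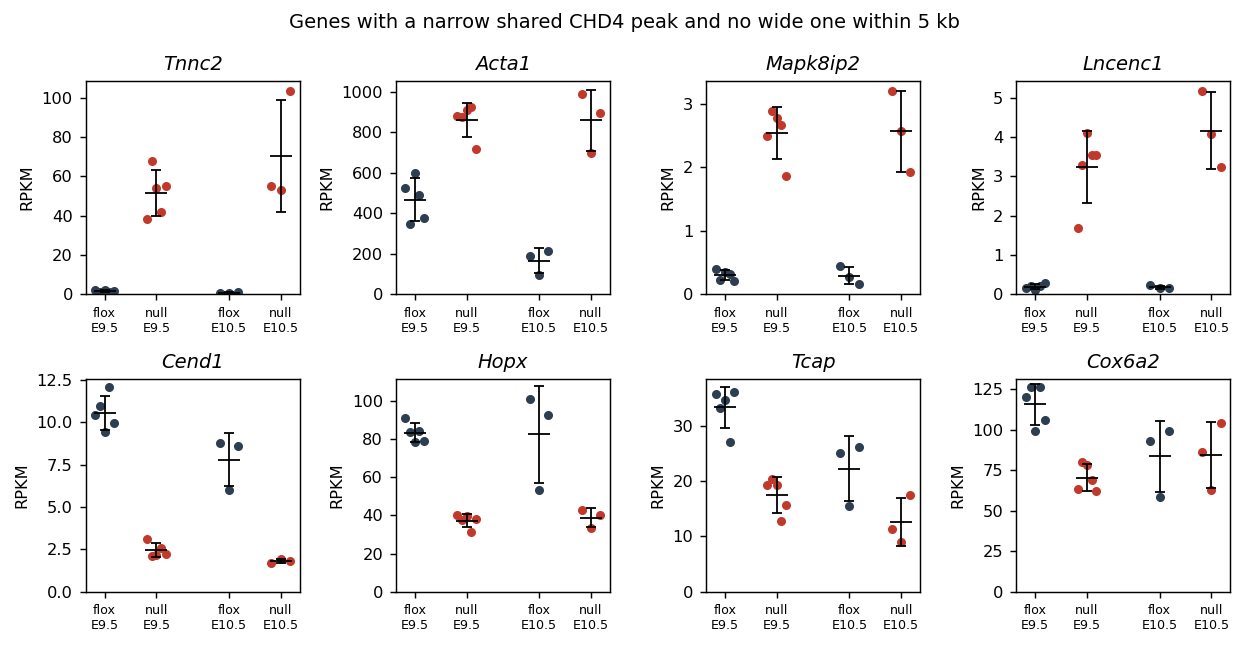
RPKM per library (points), with the mean and SD (bars), in flox (dark blue) and null (red) hearts at E9.5 (n = 5 each) and E10.5 (n = 3 each) for 8 genes with a narrow shared CHD4 peak and no wide one within 5 kb. Tnnc2, Acta1, Mapk8ip2 and Lncenc1 are higher in null hearts at both stages, Cend1 and Hopx lie lower with no overlap, and the groups overlap at E10.5 for Tcap and Cox6a2.

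Falls at E9.5 also included Synpo2, an actin-bundling protein of muscle, by 0.82 (SE 0.14), Enho by 0.95 (SE 0.16), Dok5, an adaptor of receptor kinases, by 0.86 (SE 0.13), Myadml2 by 0.83 (SE 0.13) and Sdsl by 0.82 (SE 0.20). The 6 falls at E10.5 included Frmd5, which fell by 1.10 (SE 0.20, adjusted p = 0.0321), and Entpd5, by 0.93 (SE 0.17, adjusted p = 0.035). Mlf1 was at 16, 17 and 16.6 RPKM in flox and 7.46, 7.58 and 7.48 in null hearts at E10.5. It fell by 1.09 (SE 0.13, adjusted p = 0.00771) at E10.5 and by 0.52 (SE 0.10, adjusted p = 0.00709) at E9.5, and the stages differed by -0.57 (SE 0.15, adjusted p = 0.0491). Trib2, a pseudokinase whose narrow peak lies 1 bp from its start, fell by 0.98 (SE 0.19, adjusted p = 0.04) at E10.5, with -0.30 (SE 0.15, adjusted p = 0.205) at E9.5. With the erythroid level in the fit, none of the falls of Synpo2, Enho, Dok5, Myadml2, Sdsl, Frmd5, Entpd5, Mlf1 and Trib2 passed the test. In that fit the E9.5 differences were -0.53 (Synpo2), -0.84 (Enho), -0.67 (Dok5), -0.55 (Myadml2), -0.81 (Sdsl) and -0.31 (Mlf1). At E10.5 they were -1.09 (Frmd5), -0.90 (Entpd5), -1.10 (Mlf1) and -0.96 (Trib2). The erythroid level went with genotype, so a lost call does not show that a fall followed that level. Frmd5, Mlf1 and Trib2 carry their narrow peak at the start, where the sequences are shown above. The Myadml2 peak lies outside the gene, 4519 bp downstream of its start and 70 bp from that of Pycr1. The Entpd5 peak lies 451 bp upstream of its start and 412 bp from that of Bbof1.

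Over all tested genes 10.3% fell at E9.5, and 14.2% of those with both kinds of peak. Of the 25 cardiac sarcomere genes 2 had a narrow peak only (Myl4 and Tcap), both of which fell at E9.5, and 13 had both kinds, of which 5 fell. Of the 24 cardiac transcription factors 2 had a narrow peak only (Hopx, which fell, and Zfpm2) and 12 had both kinds, of which 4 fell. These falls were at E9.5, and at E10.5 limma called 0 of 15 sarcomere genes (1 at an unadjusted p under 0.05, Tcap) and 0 of 14 factors (2, Hopx and Nkx2-5), and voom on recovered reads also called 0 (3 and 2). Nkx2-5, the homeodomain factor of the early heart, has 3 narrow peaks 2420 to 4660 bp upstream of the start used here. The nearest of them lies inside the annotated gene, which extends past that start. Nkx2-5 fell by 1.45 (SE 0.17, adjusted p = 0.000389) at E9.5, with -0.61 (adjusted p = 0.205) at E10.5. Hand1, a factor of the left ventricle, fell by 1.02 (SE 0.17) at E9.5, with -0.37 (adjusted p = 0.684) at E10.5. Mybpc3, a thick filament protein, fell by 0.48 (SE 0.08) at E9.5, with 0.16 (adjusted p = 0.705) at E10.5. With the erythroid level in the fit the E9.5 differences of Nkx2-5, Hand1 and Mybpc3 were -1.32, -0.96 and -0.33 and did not pass the test (adjusted p = 0.0812, 0.219 and 0.298). Chd3, the paralog of Chd4 in NuRD, has a narrow peak 2924 bp from a gene end beside a wide one. Chd3 rose by 0.81 (SE 0.07, adjusted p = 7.39e-05) at E9.5, with 0.44 (SE 0.17, adjusted p = 0.189) at E10.5.

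Markers of other cell types with a narrow peak were also read. Of the 15 endothelial and endocardial genes 2 had a narrow peak only (Pecam1 and Nfatc1), with differences of 0.32 (adjusted p = 0.0961) and -0.04 (adjusted p = 0.78) at E9.5 that did not pass the test. Of the 12 cushion mesenchyme and fibroblast genes 4 had a narrow peak only (Sox9, Col1a1, Col1a2 and Col3a1), and 1 rose at E10.5. That gene, Col1a1, a fibrillar collagen, was at 18.9, 27.5 and 23.8 RPKM in flox and 52.5, 47.0 and 50.2 in null hearts, higher by 1.09 (SE 0.17, adjusted p = 0.0192). At E9.5 its difference was 1.29 (SE 0.42, adjusted p = 0.0544), and the difference between stages did not pass its test (adjusted p = 0.856). With the erythroid level in the fit Col1a1 did not pass at E10.5 (0.96, adjusted p = 0.111). Nor did it pass there with sex in the fit or without flox 1, flox 3 or null 2. Of the 12 neuronal genes 3 had a narrow peak only, of which Cend1 fell and Tubb3 and Snap25 did not pass the test. Acta2 was at 654, 365 and 745 RPKM in flox and 963, 847 and 981 in null hearts at E10.5, groups that did not overlap, with a difference of 0.72 (SE 0.28) that did not pass the test (adjusted p = 0.184). Non-overlap alone was frequent at E10.5, where 31.3% of all tested genes showed it.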

How the data were processed

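Peak lists and their whole-number score are used as deposited by the authors, 1 list per library, and the scale of the score is not stated. RPKM values and gene lengths (bp) are the authors' deposited values. The authors used mm10 with MACS2, HTSeq 0.6.2 and Bowtie 1.2.0, besides DESeq2 1.6.3, bedtools 2.25.0 and SAMtools 1.6, per the submitters' processing notes. Multiplied by gene length, 100% of RPKM values were whole reads (tolerance 0.01), which gives the depth. Genes averaging 0.5 RPKM or more in a stage were fitted with limma 3.58.1 (R 4.3.3, trend) on log2(RPKM + 0.5), two-sided, each stage alone, and the stage difference was an interaction over all libraries. The fits were tested on simulated data: of genes changed 2-fold, 92.0% were recovered in the E9.5 comparison (13845 genes) and 81.6% in the E10.5 comparison (14343 genes). False calls were 9 of 197 and 28 of 208, and the E10.5 share is above the one that the adjusted p threshold allows. The simulated spread between libraries was not compared with that of the hearts, so the recovery in the real data is not known. In the limma fit at E10.5, Hopx (-1.03, adjusted p = 0.0755) did not pass and Trib2 (-0.98, adjusted p = 0.04) did.

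Starts came from the RefSeq promoter table (79.9% of 21631 protein-coding genes); for the others, whose strand is not in the tables used, either gene end was taken. The gene and promoter tables are GRCm38.p6. Whether counting used strand is not stated, so overlapping genes are uncertain. Named genes were, per stage, the 8 largest rises and falls among called genes with a narrow peak only, no overlap of groups, at least 1 RPKM and no predicted symbol, and up to 4 genes per list by p. A gene that this rule returned is not reported here. Members and lists were chosen with earlier results of these data known. Peaks were handled with pandas 2.3.3 and numpy 2.4.6 in Python 3.11.15, intervals with scipy 1.17.1 and figures with matplotlib 3.10.9.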

Additional observations from a re-analysis of the deposited data

Results flagged for a closer look

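In 9 of 160 groups of 5 libraries at E9.5, 1 library stood far from the other 4 (by Dixon's ratio). Chance gives about 1 in 20 such groups, so 9 is near what chance gives. Acta1 was low in null 5 (718 RPKM, the others at 877 to 926) and Casq1, skeletal calsequestrin, was low in flox 3 (151). Myl9, a smooth muscle light chain, was low in flox 4 (1100), Mylpf, a skeletal light chain, in null 4 (21.4), Snap25 in flox 3 (0.343) and Tbx18, an epicardial factor, in flox 1 (10.2). Ckmt1 was high in null 4 (2.4), and Nags was high in both flox 4 (1.03) and null 4 (2.13).

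The difference between null and flox hearts changed with stage for 3 named genes, by limma's interaction. It was higher at E10.5 by 1.54 for Acta1 (SE 0.33, adjusted p = 0.029) and by 1.58 for Gapdh (SE 0.29, adjusted p = 0.0234), and lower by -0.571 for Mlf1 (SE 0.15, adjusted p = 0.0491). Gapdh has many processed copies in the genome, so its value is uncertain.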

How the results depend on the processing

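The share of narrow shared peaks within 1 kb of a start (24.7%) was 21.2% with a width limit of 300 bp, 27.6% with 500 bp, 32.3% counted in the Rep2 list, 34.5% in the Rep3 list and 26.6% for scores at or above the median. Their number (10269) was 6559 at 300 bp, 4524 with the larger overlap (0.5 of both peaks), 15797 in the Rep2 list and 18511 in the Rep3 list. Leaving out 1 of the 3 lists gave 22.5 to 28.4% and 16196 to 20596 peaks. A peak then has to be in 2 lists in place of 3, a looser rule, so these numbers do not measure the part of any 1 list.

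Genes with a narrow peak only that were called at E9.5 (318) numbered 13 with the erythroid level in the fit and 170 with the sex of the library, both chosen after seeing the data, and 157 and 482 with width limits of 300 and 500 bp. Leaving out 1 library gave 209 to 377, with 209 without flox 1. At E10.5 (39) the numbers were 7 with the erythroid level, 9 with sex, 23 with no filter and 20 at 300 bp. Leaving out 1 library gave 6 to 41: 6 without flox 1, 15 without flox 2, 7 without flox 3, 17 without null 2 and 22 without null 3. Fewer libraries are in these fits. Over all genes the erythroid level left 113 and 66 calls and sex left 1238 and 79. The cause was not tested. Voom on the recovered reads gave 315 and 40.

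Same-numbered flox and null libraries deviated together for some numbers only (at E9.5 by 0.45, 0.52 and 0.26 for numbers 1, 4 and 5, and by 0.04 and -0.14 for 2 and 3; the E10.5 correlations ran from -0.03 to 0.11), so the samples are treated as sharing only a number. With a replicate block the calls numbered 505 at E9.5 and 34 at E10.5, and Col1a1 (1.29, adjusted p = 0.00628) and Col3a1 (0.57, adjusted p = 0.0151) then passed at E9.5. At E9.5, 3 of 5 flox libraries correlated best with their own number. No result reversed. Of 66 calls of named genes, 15 passed with the erythroid level, 42 with sex and 62 with the block.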
